A study of Mus musculus with 18 samples.

Results

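The following 10 genes of the Wnt pathway were examined in RNA-seq data: the ligands Wnt3, Wnt3a, Wnt8a, Wnt5a and Wnt5b, the target and feedback genes Axin2, Dkk1 and Sp5, and the nuclear factors Lef1 and Tcf7l1. They were found by name and are 10 of the 20310 genes in the table of developmental stages, with all 10 also among the 20495 genes of a separate fibroblast table. The stages came from a mouse embryonic stem cell line of strain 129 that carries a GFP reporter in Brachyury and was kept on mouse embryonic fibroblasts (MEFs). Cells were sorted as mesoderm (MES, Bry:GFP+ and Flk1-), hemangioblast (HB, Bry:GFP+ and Flk1+) and hematopoietic progenitors (HP, CD41+), or grown on from CD41+ cells to CD11b+ macrophages (MAC), beside the undifferentiated embryonic stem cells (ESC). Each of the 5 stages had 2 replicate samples, but the deposited table gives 1 combined value per stage. The 8 fibroblast libraries came from MEFs of embryonic day 14.5, labelled strain 129, either wild type or from mice with a doxycycline-inducible Tal1 transgene; the labels do not say which library had which genotype. They were labelled untreated (uFIB) or with the factors Scl/Tal1 and Lmo2 (SL), Scl/Tal1, Fli1, Gata2 and Lmo2 (SFGL) or Fli1, Gata2 and Lmo2 (FGL), at day 12 and day 21, with 1 library for each condition. All stages therefore derive from 1 reporter line, and MES and HB are separated by Flk1 while both are chosen for Brachyury activity.

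Values are FPKM, fragment numbers normalized for transcript length and for the number of aligned reads, summed over the start sites of a gene. Changes are given on log2(FPKM + 1), a scale that understates the change of genes at low levels. A gene counted as changed when it moved by at least 1 on this scale and had at least 1 FPKM in one of the compared columns. This limit is 2-fold on FPKM + 1 and is called 2-fold below. Genes at low levels can therefore differ more than 2-fold in FPKM and not be counted. A value of 0 is one listed as 0 in the table. With 1 value per stage or condition no difference could be tested and no error is known, so every change below is a description of these columns and neighbouring levels cannot be ranked against a spread. The tables were normalized separately and are compared only within themselves. In such bulk RNA, fewer cells of one kind and less RNA per cell cannot be told apart. Of the stage markers, Pou5f1 was highest in ESC at 383 FPKM, T (Brachyury) in MES at 142 and Kdr (Flk1) in HB at 77.6. Itga2b (CD41) was highest in HP at 62.5 FPKM and Csf1r in MAC at 234. T, through its reporter, Kdr and Itga2b were the basis of the sorting, so their peaks are no independent check of the labels. Other markers were mixed. Mesp1 was also highest in MES and Etv2 in HB. The mesoderm markers Mixl1 and Eomes were highest in HB, Mixl1 at 80.4 FPKM against 46.9 in MES. Tal1, Cdh5 and Tek, of hemangioblast and endothelium, were highest in HP, Tal1 at 57.3 FPKM against 19.9 in HB. The ESC samples carry other processing tools in the submitters' notes than the later stages, so that for changes from ESC the stage and the processing cannot be told apart.

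Wnt proteins are secreted, lipid-modified ligands that bind Frizzled receptors together with the co-receptors Lrp5 and Lrp6. In the canonical branch this stops the destruction of β-catenin, which then joins the DNA-binding factors of the TCF/LEF family and activates targets such as Axin2 and Sp5. Wnt3 is needed for the primitive streak, where mesoderm forms, and Wnt5a and Wnt5b are best known for signals that do not pass through β-catenin.

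The upstream sequence of the target genes was examined for the core letters that TCF/LEF factors bind. The 250 bases before each transcript start in RefSeq (GRCm38.p6) were searched on both strands for CTTTGA and CTTTGT, of which CTTTGAT is a longer form. Promoters were matched for 8 of the 10 genes, all except Wnt5a and Wnt8a, with 13 windows in all. Of 32817 such windows over the genome 27.6% held CTTTGA or CTTTGT. Among the 13 windows 5 did (38.5%), 1 each of Dkk1, Lef1, Sp5, Tcf7l1 and Wnt5b. The Sp5 window had 4 matches, a number reached by 0.0945% of all windows. Dkk1 and 1 of the 4 Lef1 windows had 3, reached by 0.777%. All Dkk1 matches and the Tcf7l1 match lay inside annotated exons. The windows of Axin2, Wnt3 and Wnt3a held none, which says only that these letters are not in these windows. The sequences of Sp5 and Axin2 are shown because both genes are known Wnt targets and the windows differ in this way; capitals mark the matches. Sp5 is given for chr2:70474673-70474922 on the plus strand and Axin2 for chr11:108920099-108920348 on the plus strand.
Sp5: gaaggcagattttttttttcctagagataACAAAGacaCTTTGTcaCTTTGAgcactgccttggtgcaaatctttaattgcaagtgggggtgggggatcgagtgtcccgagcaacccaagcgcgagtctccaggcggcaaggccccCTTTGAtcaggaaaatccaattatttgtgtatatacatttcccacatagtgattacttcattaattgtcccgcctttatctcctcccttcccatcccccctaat
Axin2: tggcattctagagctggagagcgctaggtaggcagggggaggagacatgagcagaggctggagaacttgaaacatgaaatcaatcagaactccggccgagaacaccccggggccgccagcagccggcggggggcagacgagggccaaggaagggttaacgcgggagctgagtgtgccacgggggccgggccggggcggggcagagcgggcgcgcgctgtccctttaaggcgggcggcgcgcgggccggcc
In Sp5 the matches began 221, 212, 204 and 104 bases before the transcript start, so that 3 lay close together and the 1 nearest the start was the longer form CTTTGAT. Matches in 2 other genes are shown as 30 bases each, from chr19:30549596-30549625 on the minus strand for Dkk1, inside an exon of the GENCODE M21 annotation, and from chr6:119449440-119449469 on the minus strand for one of the 3 Wnt5b windows, where the match is again part of CTTTGAT.
Dkk1: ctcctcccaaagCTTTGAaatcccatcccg
Wnt5b: gagtaagtctctCTTTGAtctgctccctgt

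The 10 genes were mostly genes of MES and HB. Their summed level was 22.4, 116, 105, 4.72 and 0.205 FPKM across ESC, MES, HB, HP and MAC, and the number at or above 1 FPKM was 8, 9, 8, 1 and 0 of 10 in the same order. Wnt3, Wnt3a, Wnt8a, Wnt5b and Sp5 were highest in MES, Wnt5a, Axin2, Dkk1 and Lef1 were highest in HB, and Tcf7l1 alone was highest in ESC. Among all 11988 genes with at least 1 FPKM in a stage, 6.11% were highest in MES, 18.0% in HB and 46.8% in MAC.

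Wnt3 (chr11:103774175-103818021), a canonical ligand, was the most abundant of the ligands per length in MES and HB. It stood at 5.61, 23.1, 21.9, 0.420 and 0 FPKM across ESC, MES, HB, HP and MAC. Its rise from ESC to MES was 1.87 and its fall from HB to HP was -4.01 on the log2 scale, while MES and HB differed by only -0.08. Wnt8a (chr18:34542328-34548061), a ligand of the early streak, was the most stage-restricted of the 5 ligands, with 1.07, 14.0, 0.859, 0.0230 and 0 FPKM across ESC, MES, HB, HP and MAC. MES held 87.8% of its summed level over the stages, and its fall of -3.01 from MES to HB followed a rise of 2.86. Wnt3a (chr11:59248042-59290751), the close relative of Wnt3, followed the same course far lower, with 0.202, 1.72, 0.117, 0.0031 and 0 FPKM in the same order of stages. Wnt3a thus passed 1 FPKM in MES only, and Wnt3, present at 21.9 FPKM in HB, did not share the fall of Wnt3a and Wnt8a between MES and HB.

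Wnt5a and Wnt5b, a closely related pair, were present in both MES and HB. Wnt5a (chr14:28505473-28525515) stood at 1.34, 11.6, 16.5, 2.28 and 0.0143 FPKM across ESC, MES, HB, HP and MAC. Wnt5b (chr6:119432531-119544347) stood at 1.06, 19.5, 16.6, 0.123 and 0.0255 FPKM in the same order. Its rise of 3.32 from ESC to MES was the largest of the 10 genes, against 2.43 for Wnt5a. Wnt5a was the only one of the 10 above 1 FPKM in HP. HP also held RNA of some fibroblast genes: 4 of 8 fibroblast markers reached 1 FPKM there, with Postn at 23.3, Col1a2 at 17.6 and Col1a1 at 13.1 FPKM, and the summed level of the 8 was 61.1 FPKM in HP against 2.86 to 7.68 in the other stages. Of the 8, Thy1 was near 0 in HP, at 0.0052 FPKM, as were Lum at 0.242 and Dcn at 0.366. The part of these cells or genes in the Wnt5a value of HP was not tested.

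Axin2 (chr11:108920349-108950781), which encodes a scaffold of the β-catenin destruction complex and is a standard readout of canonical signalling, rose and fell with Wnt3. Its values were 2.20, 15.9, 18.6, 0.890 and 0.148 FPKM across ESC, MES, HB, HP and MAC. Its rise from ESC to MES was 2.40 and its fall from HB to HP was -3.37. Sp5 (chr2:70474923-70477726), a transcription factor induced by Wnt signalling, stood at 3.91, 19.5, 9.44, 0.0430 and 0 FPKM in the same order. Its difference of -0.97 between MES and HB lay just short of the 2-fold limit and passed it, at -1.13, when columns were scaled to the same upper quartile. Dkk1 (chr19:30545885-30549496), a secreted inhibitor that binds Lrp5 and Lrp6, came latest. Its values were 0.544, 2.06, 11.8, 0.251 and 0 FPKM from ESC to MAC. HB held 80.5% of the summed level of Dkk1, which was the only one of the 10 genes to rise at least 2-fold from MES to HB, by 2.06; its earlier change of 0.99 from ESC to MES lay just under the limit.

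Lef1 (chr3:131110297-131224357), a TCF/LEF factor that acts mainly as an activator, stood at 2.24, 7.30, 7.84, 0.471 and 0.0172 FPKM across ESC, MES, HB, HP and MAC. Tcf7l1 (chr6:72626380-72788956), a family member that acts mainly as a repressor, ran the other way at the first step. It stood at 4.20, 0.784, 1.07, 0.210 and 0 FPKM in the same order. From ESC to MES Lef1 thus rose by 1.36 while Tcf7l1 fell by 1.54. From HB to HP Lef1 fell by 2.59 and Tcf7l1 changed by -0.77, short of the limit of 1. In FPKM Tcf7l1 was 5.07-fold lower in HP than in HB, starting from a level near the minimum of 1 FPKM.

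**Figure D1:**
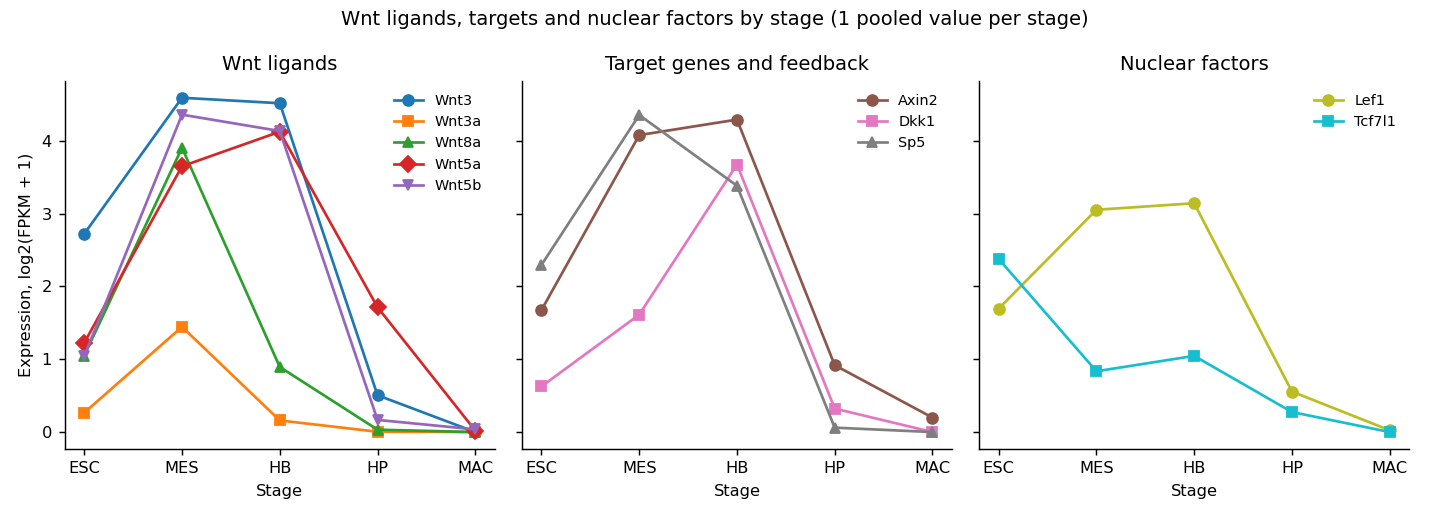
Expression of the 10 genes on log2(FPKM + 1) against stage, with the ligands, the target genes and the nuclear factors in separate panels and 1 combined value per point without error bars. Most lines peak in MES or HB and lie below 1 in HP, except Wnt5a at 2.28 FPKM in HP, and Tcf7l1 starts high in ESC.

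Read by transition, the genes moved together from ESC to MES and from HB to HP. The paper places hemogenic endothelium (HE) between HB and HP. HE was not used here, so the values do not show where between HB and HP a gene fell. From ESC to MES 8 of the 10 rose and 1, Tcf7l1, fell at least 2-fold, where 6.95% of the 10605 genes tested rose and 7.30% fell, and the median change of the 10 was 1.96 against 0.00 over all genes tested. From MES to HB 1 rose (Dkk1) and 2 fell (Wnt3a and Wnt8a), with 2.53% of all genes rising and 3.30% falling. The other 7 stayed under the limit, among them Sp5 at 19.5 and 9.44 FPKM. From HB to HP 7 of the 8 genes above the minimum fell and none rose, with 8.79% of all genes falling and 8.88% rising; their median change was -3.34 against -0.13 over all genes. Wnt3a and Wnt8a were already below 1 FPKM in HB and could not be counted. From HP to MAC only Wnt5a was above the minimum and it fell by 1.69, where 13.9% of all genes fell and 33.4% rose. At that last step the median of all genes was 0.46 higher in MAC as deposited and -0.18 after scaling to the same upper quartile; Wnt5a was below the median change under either.

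**Figure D2:**
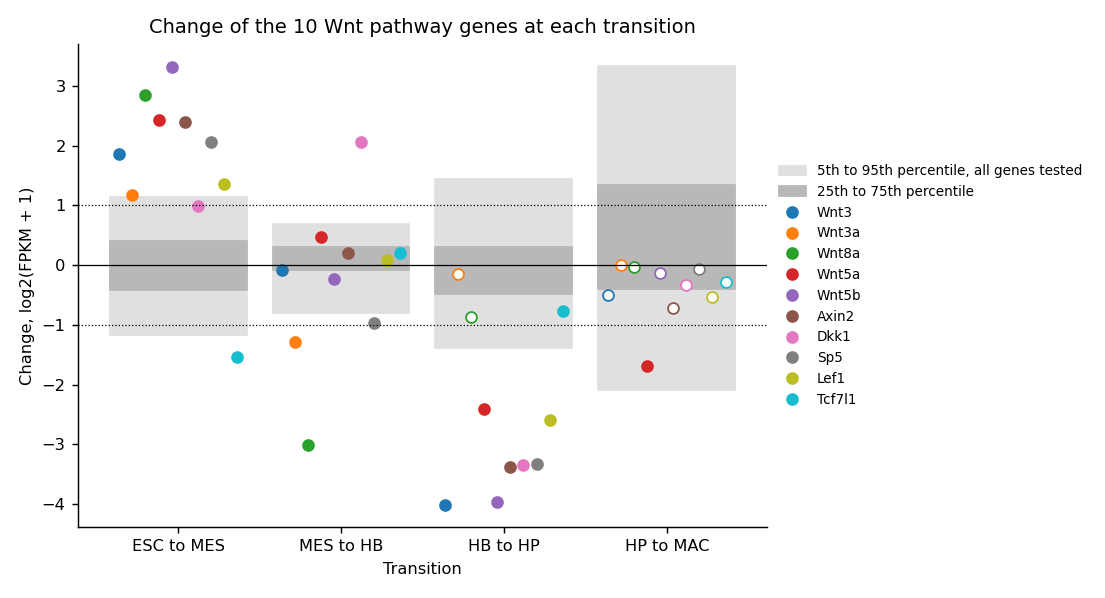
Change of the 10 genes on log2(FPKM + 1) at each transition, with filled points for genes at or above 1 FPKM in one of the stages and open points below it, over grey bands for the percentiles of all genes tested; dotted lines mark 2-fold. The points lie above the bands from ESC to MES, apart from Tcf7l1 below them and Dkk1 within, and 7 lie below the bands from HB to HP.

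Wnt5a, Wnt5b and Lef1 are each divided over several start sites in the table, which gives the position of the gene but not of the single site. Wnt5b changed most in composition. One of its 3 sites, TSS16863, carried 99.2% of the gene's FPKM in MES and 78.8% in HB, with 19.4 and 13.1 FPKM. A further site, TSS16864, stood at 0.401, 0.0063 and 3.38 FPKM in ESC, MES and HB, so that 20.4% of Wnt5b in HB came from a site close to 0 in MES. For Wnt5a the share of the site TSS5554 was 9.84% in ESC, 41.8% in MES and 34.1% in HB, and both sites rose from ESC to MES. For Lef1 the share of the site TSS12575 was 22.4% in ESC, 33.5% in MES and 43.5% in HB, with 0.501, 2.44 and 3.41 FPKM. How far the estimate assigned reads to the correct site of a gene is unknown, since no error came with these values.

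**Figure D3:**
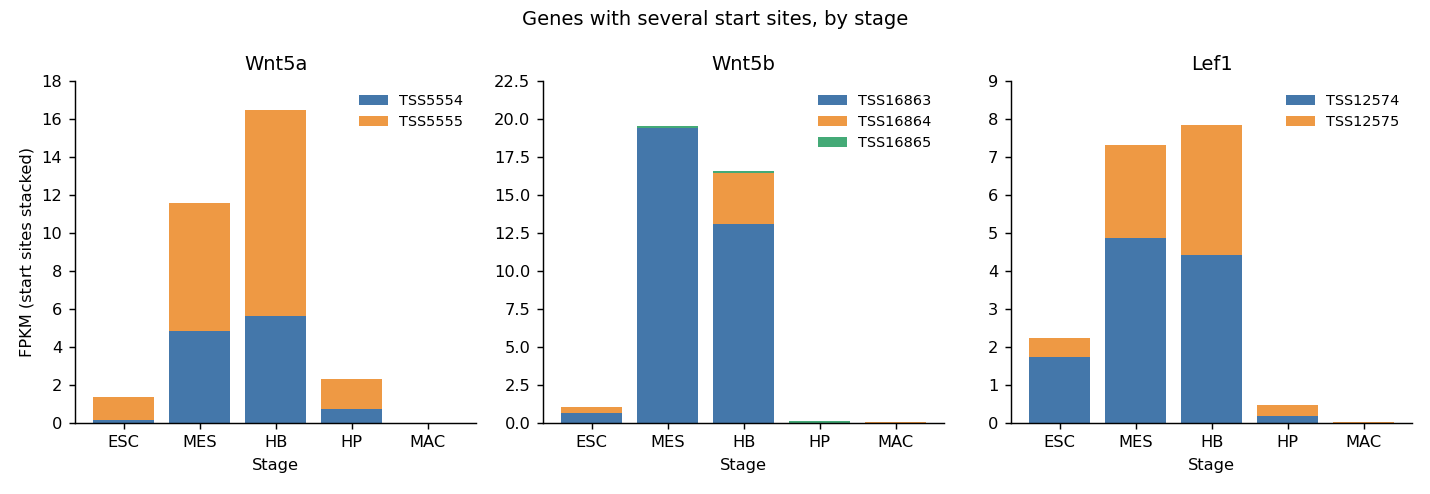
FPKM of Wnt5a, Wnt5b and Lef1 against stage as stacked bars, 1 colour per start site. The second Wnt5b site adds 3.38 FPKM in HB and next to nothing in MES, and both Wnt5a sites are present in MES and HB.

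The genes whose course over the 5 stages was most like each of the 10 were sought by Pearson's r on log2(FPKM + 1) among the 7013 or 7014 other genes with at least 10 FPKM in a stage. With 5 points, each shared by all genes of a stage, r is a description and ignores the size of a change. Wnt5b lay closest to Mesp1 (r = 0.999), a factor of early mesoderm, which stood at 52.9 FPKM in MES and 42.9 in HB, followed by Evx1 (r = 0.999) and Zfp217 (r = 0.996). Wnt3 lay closest to Mex3d, Atl2 and Vrtn (r = 0.999, 0.998 and 0.998), and Lef1 to Vrtn, Zmym2 and Ptpn2 (r = 0.999, 0.998 and 0.997), so that Vrtn, at 43.6 FPKM in MES and 54.3 in HB, stood in both lists. Sp5 lay closest to Zic2, Arl4d and the joint entry Acsl3,Utp14b (r = 0.997, 0.997 and 0.996), and Wnt5a to Gas1, Cdkn2aip and Spin2 (r = 0.999, 0.996 and 0.995). Wnt8a was the gene most like Wnt3a (r = 0.991), before Tspan13 and Dnd1 (r = 0.976 and 0.966), and Wnt8a itself was most like Tspan13, Ppp4r4 and Fgf5 (r = 0.987, 0.985 and 0.982) with no gene at or above 0.99. Dkk1 lay closest to Slc38a4, Srsf9 and Zc3h14 (r = 0.997, 0.997 and 0.995). Slc38a4, an amino acid transporter gene, peaked in HB at 166 FPKM. Axin2 lay closest to Fam162a, Ppp1cb and Ppip5k2 (r = 0.9995, 0.998 and 0.997), genes that varied far less than Axin2: Fam162a lay between 32.7 and 55.7 FPKM. Tcf7l1 lay closest to Taf6, Entpd6 and Pcolce (r = 0.999, 0.998 and 0.997). The number of genes at r of at least 0.99 was between 0 for Wnt8a and 15 for Tcf7l1.

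The remaining pathway genes were described from 9 lists by role, which held 91 genes, 89 of them in the stage table. At the entry into MES 16 of the 62 above the minimum rose and 5 fell, where 6.95% of all genes rose and 7.30% fell. From MES to HB 7 of 57 rose and 5 fell, against 2.53% and 3.30% of all genes. With columns scaled to the same upper quartile 6 of 59 rose and 7 fell at this step, against 2.23% and 4.35%. From HB to HP 1 of 56 rose and 26 fell, against 8.88% and 8.79%. From HP to MAC 10 of 39 rose and 9 fell, against 33.4% and 13.9%, but with columns scaled to the same upper quartile 4 of 40 rose and 14 fell, against 19.5% and 24.7%. The median changes were 0.17, 0.12, -0.92 and 0.00, against 0.00, 0.13, -0.13 and 0.45 over all genes tested.

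Among the other ligands 8 reached 1 FPKM in a stage, 5 of them highest in ESC and 3 in HB. At the entry into MES Wnt7b fell from 5.91 to 0.247 FPKM, Wnt6 from 6.67 to 2.33 and Wnt9a from 2.12 to 0.550, while Wnt11 rose from 0.126 to 1.63. Wnt2, a ligand of vascular and mesodermal tissues, rose from 0.648 FPKM in MES to 6.49 in HB and Wnt2b from 0.809 to 3.54, and both fell again in HP, to 1.37 and 0.489. Wnt4 stood at 4.87, 2.03, 2.00, 2.95 and 0.0149 FPKM across ESC, MES, HB, HP and MAC. Of the genes needed to release ligands, Wls, the carrier of lipid-modified Wnt proteins, stood at 13.3, 49.1, 90.8, 31.5 and 103 FPKM across ESC, MES, HB, HP and MAC. Its level was highest in MAC as deposited, but in HB after scaling to the same upper quartile, at 96.4 against 69.5 in MAC, and its rise from HP to MAC then fell short of 2-fold. The 5 ligands followed here summed to 0.0398 FPKM in MAC. Porcn, the enzyme that attaches the lipid, stood at 2.53, 1.42, 0.309, 0.146 and 0.462 FPKM in the same order. On log2(FPKM + 1) it did not reach a change of 1 at any step as deposited, though 1.42 to 0.309 FPKM is more than 2-fold. Scaled in the same way, its change from MES to HB was -1.01.

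The receptors were present throughout, but their makeup changed. Fzd10 stood at 7.23, 35.8, 18.1, 5.51 and 0.0640 FPKM across ESC, MES, HB, HP and MAC. Fzd7 was highest in HB at 28.3 FPKM, fell to 3.15 in HP and stood at 9.36 in MAC. From HB to HP 4 of the 9 Frizzled genes above the minimum fell (Fzd1, Fzd2, Fzd7 and Fzd10) and Fzd8 rose; with columns scaled to one upper quartile the change of Fzd2 was -0.95, short of the limit. The co-receptor Lrp5 rose at the entry into MES, from 1.50 to 11.8 FPKM. From HP to MAC it went from 7.51 to 20.7 FPKM, a change of 1.35 as deposited and 0.66 after scaling to the same upper quartile, while Lrp6 stood at 9.27, 11.8 and 24.7 FPKM in ESC, MES and MAC. Ror2, a receptor for Wnt5a, rose from 2.59 to 9.76 FPKM at the entry into MES and fell to 3.49 in HB and 0.678 in HP. Rspo3, an R-spondin that strengthens Wnt signals, had 0.888, 14.4, 25.8, 5.60 and 0.0251 FPKM across ESC, MES, HB, HP and MAC. Its receptor Lgr4 was highest in MES at 25.1 FPKM, while Lgr5 passed 1 FPKM only in HB, at 2.90.

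Of 15 other inhibitors 8 reached 1 FPKM in a stage, 4 of them highest in ESC and 2 in HB. From MES to HB 1 of the 6 above the minimum rose and none fell. This 1 was Apcdd1, a membrane inhibitor that also rose into MES, with 1.88, 9.83 and 29.6 FPKM in ESC, MES and HB and a fall to 1.87 FPKM in HP. Frzb, a secreted inhibitor, had 0.236, 3.83, 7.72 and 0.171 FPKM from ESC to HP. Of the 9 cytoplasmic components 0 changed 2-fold from MES to HB, where 2.53% of all genes rose and 3.30% fell. From HB to HP 0 changed, where 8.88% rose and 8.79% fell. With 9 genes, counts of 0 are close to these shares. At the other steps, as deposited, Ctnnb1 alone changed. It encodes β-catenin and stood at 18.8, 179, 199, 136 and 499 FPKM across ESC, MES, HB, HP and MAC. After scaling Dvl2 also passed the limit from HP to MAC, at -1.36. Among the nuclear partners Tle4, a co-repressor, fell from 38.1 to 12.5 FPKM at the entry into MES, and Tcf7, a relative of Lef1, held 15.1, 12.3 and 12.3 FPKM up to HB and then fell to 2.28 in HP and 0.0053 in MAC. Tcf7l2 was the one TCF gene that rose in MAC, from 0.288 to 2.98 FPKM.

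Of 14 other target genes, 11 were above the minimum at the entry into MES, where 7 rose (T, Mixl1, Cdx2, Evx1, Msgn1, Sp8 and Tnfrsf19) and Myc fell. From MES to HB 2 of 11 rose and 4 fell. T fell from 142 to 36.4 FPKM, Msgn1 from 11.1 to 2.23, Cdx2 from 18.3 to 5.32 and Sp8 from 5.49 to 1.35, while Nkd1, which encodes a feedback inhibitor, rose from 1.63 to 6.36 and Myc from 6.77 to 17.7. From HB to HP 10 of 11 fell, among them Mixl1 from 80.4 to 0.127 FPKM and Tnfrsf19 from 24.0 to 0.399, and Myc, at 17.7 and 16.0 FPKM, did not. Ccnd1, a cell cycle gene, fell from 77.8 to 4.37 FPKM and stood at 38.8 again in MAC. T, Mixl1, Evx1 and Msgn1 are also genes of the primitive streak and early mesoderm, and MES and HB cells were sorted for the reporter in T.

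**Figure D4:**
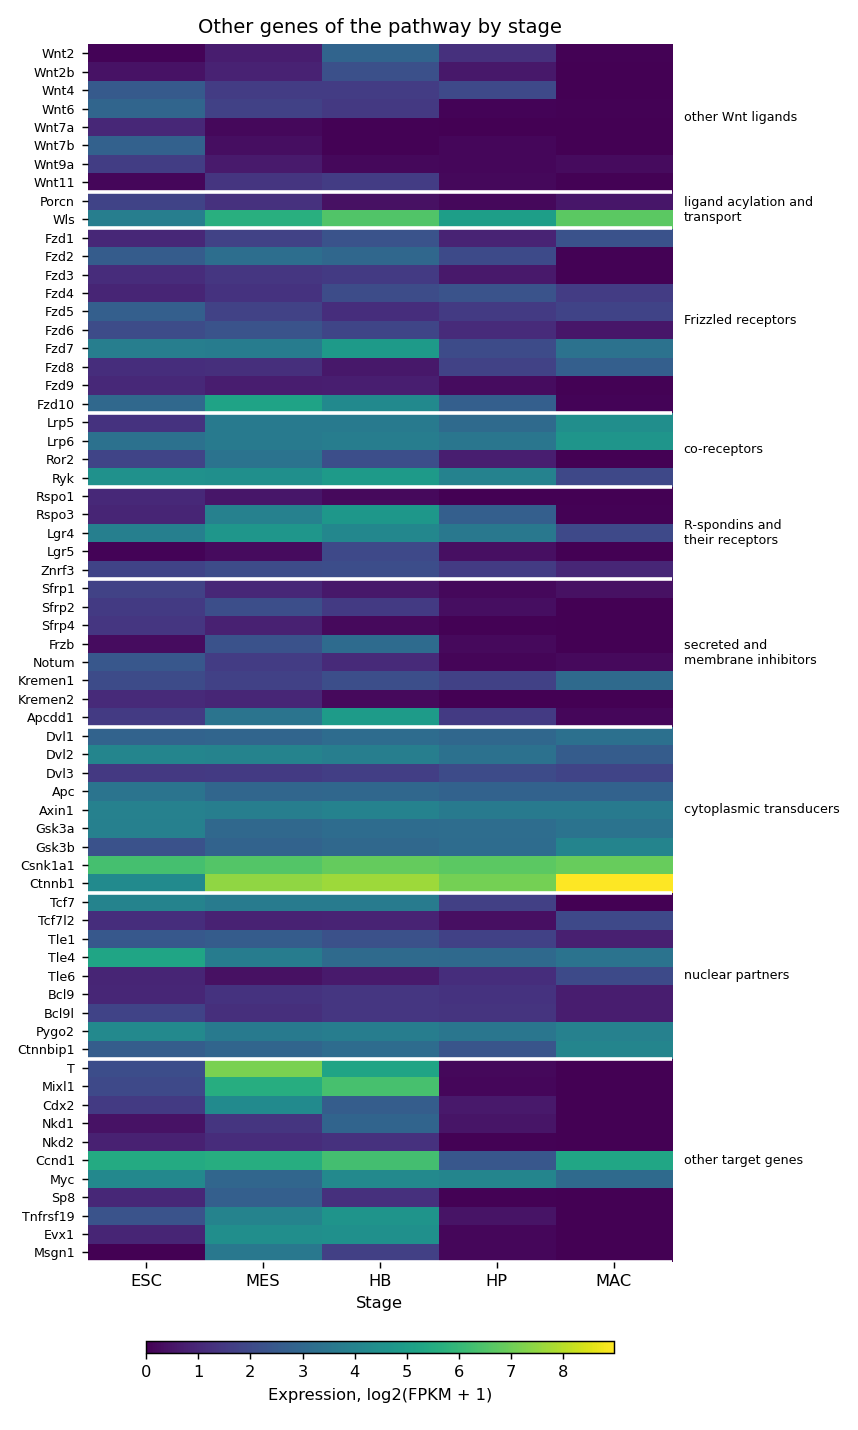
Expression on log2(FPKM + 1), as colour, of the other pathway genes with at least 1 FPKM in a stage, in rows grouped by role and columns by stage. The inhibitors Apcdd1 and Frzb and the targets T and Mixl1 are bright in MES or HB and dark in HP and MAC, while Ctnnb1 is brightest in MAC, as is Wls in these unscaled values.

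In the fibroblast libraries a different set of the 10 genes was present. Tcf7l1, Wnt5a, Axin2 and Wnt5b reached 1 FPKM in at least one of the 8 libraries; Wnt3a and Wnt8a were listed at 0 in all 8, and Wnt3, Dkk1, Sp5 and Lef1 did not exceed 0.130 FPKM. The nonzero values of Dkk1 stood in the ratio 1 to 1 to 2 to 1 once corrected for the relative depth of the libraries, and those of Sp5 in the ratio 1 to 1, which is the pattern of 1 or 2 reads. None of the 4 reached the minimum of 1 FPKM, and none was compared. Both libraries of untreated cells together give the one view of variation among controls. On log2(FPKM + 1) Tcf7l1 differed by 0.08 between day 12 and day 21, Wnt5a by 0.63, Wnt5b by 0.62 and Axin2 by -0.72. Each lay under the limit of 1, which 3.14% of 11737 genes reached. In plain FPKM, Wnt5b went from 1.08 to 2.22 and Axin2 from 2.91 to 1.37, both more than 2-fold apart.

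Tcf7l1 was the gene of the 10 with the highest level in untreated fibroblasts, and it was lower in the 4 libraries labelled SL or SFGL. Its values for uFIB, SL, SFGL and FGL were 17.3, 5.49, 3.24 and 18.4 FPKM at day 12 and 18.4, 5.35, 3.04 and 25.5 FPKM at day 21. The 4 SL and SFGL libraries lay at 3.04 to 5.49 FPKM and the 4 uFIB and FGL libraries at 17.3 to 25.5. These are single libraries of different treatments and days, not replicates. How many of all genes separate in this way was not counted. Against uFIB of the same day the SL libraries changed by -1.50 at day 12 and -1.61 at day 21, the SFGL libraries by -2.11 and -2.26, and the FGL libraries by 0.08 and 0.45. Axin2 stood at 2.91, 0.663, 0.664 and 2.52 FPKM at day 12 in the same order of libraries. At day 21 it was 1.37, 1.26, 0.712 and 1.95 FPKM, so that SL and uFIB were nearly level. The changes at day 12, -1.23 for both SL and SFGL, became -0.92 and -0.92, no longer 2-fold, against the mean of both uFIB libraries.

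At day 12 Wnt5a stood at 10.6, 9.27, 6.59 and 10.2 FPKM for uFIB, SL, SFGL and FGL, and at 17.0, 11.6, 6.0 and 16.2 FPKM at day 21. SFGL was lowest on both days, and its change of -1.36 at day 21 was the only 2-fold one. Wnt5b had 1.08, 0.347, 0.352 and 0.179 FPKM in the same order at day 12, and 2.22, 0.376, 0.295 and 1.46 FPKM at day 21. Its changes at day 21 were -1.22 for SL and -1.31 for SFGL; against the mean of both uFIB libraries these became -0.95, no longer 2-fold, and -1.03. In all, 2 of the 4 genes above the minimum fell under SL and 2 under SFGL at day 12, where 13.5% and 17.0% of all genes fell, and 2 and 3 of 4 at day 21, where 12.3% and 15.9% fell. None of the 4 rose, where 14.2% and 14.7% of all genes rose at day 12 and 11.9% and 14.0% at day 21. None of the 4 was counted as changed in the libraries labelled FGL. There 2.96% of all genes rose and 0.302% fell at day 12, and 0.479% rose and 0.376% fell at day 21. Wnt5b in FGL at day 12 changed by -0.82, short of the limit, but in FPKM it was 6.06-fold lower than in uFIB. Against the mean of both uFIB libraries this fall was counted. In SL and SFGL at day 12 Wnt5b was 3.13-fold and 3.08-fold lower in FPKM, also without being counted. All comparisons of a day share 1 uFIB library.

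**Figure D5:**
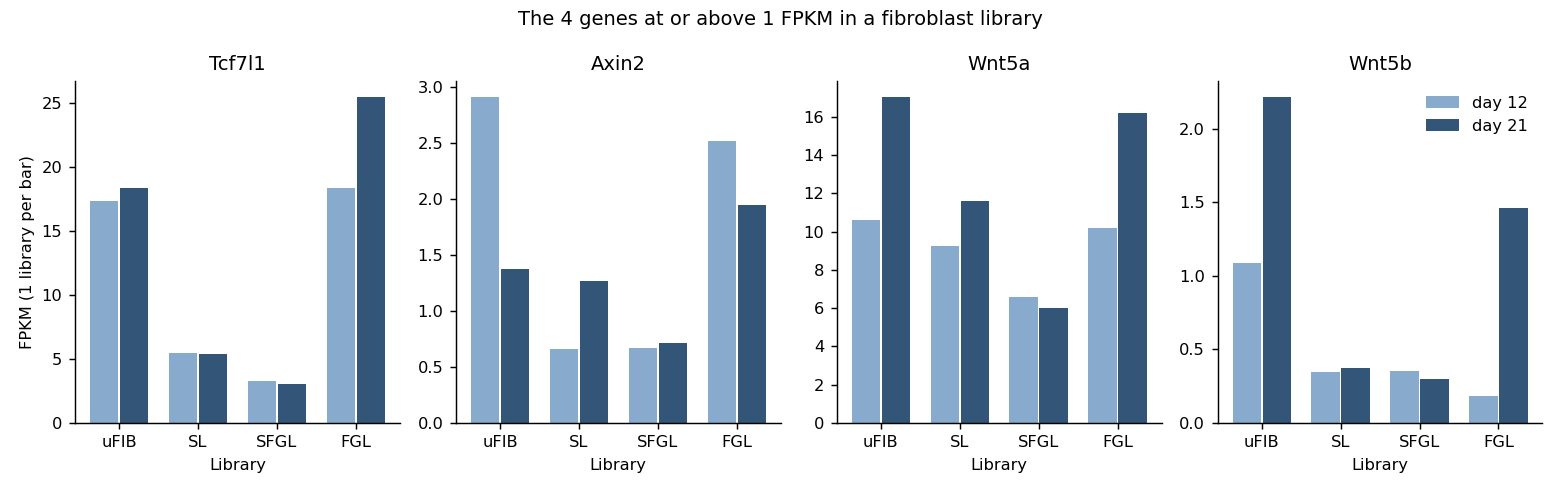
FPKM of Tcf7l1, Axin2, Wnt5a and Wnt5b in the 8 fibroblast libraries, 1 library per bar, light for day 12 and dark for day 21, each panel with its own axis from 0. Tcf7l1 is lower in SL and SFGL than in uFIB of the same day, and how many of all genes share this was not counted.

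Markers of fibroblasts and of blood moved with these values. All 8 fibroblast markers fell at least 2-fold with SL and with SFGL at day 12 and 7 of 8 at day 21, and their summed level was 33.2% and 27.1% of uFIB at day 12 and 26.8% and 21.3% at day 21. Tcf7l1 stood at 31.7% and 18.7% of uFIB at day 12 and at 29.1% and 16.5% at day 21, and Wnt5a at 87.2%, 62.0%, 68.0% and 35.2% in the same order. Axin2 was at 22.8%, 22.8%, 92.0% and 51.8%, and Wnt5b at 32.0%, 32.5%, 17.0% and 13.3%, again in this order. Blood progenitor markers rose in the same libraries, 4 of 5 in SL and 5 of 5 in SFGL at day 12 and 4 of 5 in both at day 21; Itga2b, for example, stood at 1.10 FPKM in uFIB and 49.7 in SL at day 12. The part of a changed share of fibroblasts in the values of Tcf7l1, Axin2 and Wnt5b was not tested. In the libraries labelled FGL the summed fibroblast markers were at 84.9% and 101% of uFIB at day 12 and day 21. There 3 of 5 blood progenitor markers rose at day 12 and 0 at day 21. Itga2b was at 8.83 FPKM in FGL at day 12, where Tcf7l1 and Axin2 did not fall 2-fold. Wnt5b in this FGL library stood at 16.5% of uFIB, with 0.179 against 1.08 FPKM. The factors went partly against the FGL labels: Tal1 was at 7.04 FPKM in the library labelled FGL at day 12, against 0.0414 in uFIB, and Fli1 at day 21 was at 3.35 FPKM, against 3.02 in uFIB.

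Of the other pathway genes more fell than rose in the same libraries. Of 62 above the minimum at day 12, 35 fell and 1 rose with SL, where 13.5% of all genes fell and 14.2% rose, and 41 fell and 1 rose with SFGL, against 17.0% and 14.7%. Of 61 at day 21, 28 fell and 4 rose with SL, against 12.3% and 11.9%, and 33 fell and 2 rose with SFGL, against 15.9% and 14.0%. Wnt16, the most abundant ligand in untreated fibroblasts, had 51.7, 8.99 and 5.50 FPKM for uFIB, SL and SFGL at day 12. Of the 8 Frizzled genes above the minimum 7 fell in SL and 7 in SFGL at day 12, among them Fzd4 from 29.8 to 7.80 and 4.82 FPKM. Lgr5 had 92.9, 9.11 and 5.57 FPKM in the same order, and the secreted inhibitor Sfrp2 had 509, 74.1 and 32.3 FPKM. Of the 9 cytoplasmic components 0 fell at least 2-fold in SL on both days and 1 in SFGL on each day. Myc was the 1 gene that rose in SL and SFGL at day 12, from 23.8 FPKM in uFIB to 66.0 and 93.0. The libraries labelled FGL had 1 fall and no rise among 62 genes at day 12 and 1 fall and no rise among 60 at day 21.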

How the data were processed

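RNA-seq values of 18 samples were used, 10 from stages and 8 from fibroblasts. The authors mapped reads to mm10 (GRCm38), kept those at unique positions, removed duplicates and computed FPKM with Cufflinks; for the stages the deposited FPKM hold 1 value per start site in which replicates are combined. The submitters' processing notes name Bowtie and HOMER for ESC, Cufflinks for later stages, and TopHat and Cufflinks for the fibroblasts. FPKM do not give read numbers, so the depth behind a value is unknown; relative depths of the fibroblast libraries, 0.587 to 1.56 times that of uFIB at day 12, were estimated from the steps between values under 0.3 FPKM. The column of 1 other population (HE) was not used.

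From these values, start sites were summed over 22089 rows to 20310 genes, and changes on log2(FPKM + 1) of at least 1 were counted among genes with at least 1 FPKM in either column. No statistical test was possible. Positions are those of the authors' table, counted from 1, and overlapped the genes of GENCODE M21. The 10 genes and the pathway and marker lists were chosen with earlier results of these data known. Named from each list were the genes highest in a stage or with the largest changes, up to 4 per list and transition, and the 3 most similar genes; fibroblast examples other than the 10 genes, and genes named to complete a count, were chosen after their values were seen. Tle3 and Aes in the stages were not analysed here. The change counts and depth estimates were tested on simulated data. Alternatives were pseudocounts of 0.1 and 0.001, limits of 5 FPKM, no minimum or 4-fold, scaling to the same upper quartile, the highest start site only, and the mean of both uFIB libraries. Scripts ran under Python 3.11.15 with pandas 2.3.3, NumPy 2.4.6 and, for plots, matplotlib 3.10.9.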

Additional observations from a re-analysis of the deposited data

Results flagged for a closer look

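Axin2 moved in opposite directions on the 2 days in the libraries labelled FGL against uFIB, by -0.15 on log2(FPKM + 1) at day 12 and by 0.31 at day 21. Axin2 stood at 2.91 FPKM in uFIB and 2.52 in FGL at day 12 and at 1.37 and 1.95 FPKM at day 21. The difference between the days was not tested, both changes are smaller than the difference of -0.72 between the uFIB libraries of the 2 days, and each rests on 1 library per condition.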

How the results depend on the processing

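Of 70 recomputed counts of changed genes among the 10, 54 stayed within 1.5 times the reported count. From ESC to MES 5 of 10 changed at least 4-fold instead of 9 at 2-fold. From HP to MAC the 1 change was 0 with a limit of 5 FPKM and 0 at 4-fold. With 5 FPKM as the limit 1 gene changed in SL at day 12, SFGL at day 12 and SL at day 21, instead of 2 each. At 4-fold there were 0 in SL at day 12, 1 in SFGL at day 12, 0 in SL at day 21 and 1 in SFGL at day 21. Against the mean of both uFIB libraries 1 gene changed in SL at day 12, 1 in SFGL at day 12, 1 in SL at day 21 and 1 in FGL at day 12; the last was Wnt5b, which also made a count of 1 in FGL at day 12 with pseudocounts of 0.1 and 0.001. Fewer genes above a higher limit or fold lower a count by construction; the cause of the other moves was not tested. No change of a gene counted as changed reversed. The same settings for the other pathway genes, added after seeing the data, moved 18 of 70 counts by more than 1.5 times. No paired analysis was possible because the stage table combines the replicates and each fibroblast condition has 1 library, and for the same reason no replicate could be left out.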
